A study of Mus musculus with 6 samples.

Results

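The connexins are the proteins of gap junctions, and their genes carry the symbols Gja, Gjb, Gjc or Gjd followed by a number. By that rule 14 of the 12422 probe sets of the array belonged to 11 connexin genes, with 2 probe sets for Gja1, 3 for Gjb6 and 1 for each of the other 9 genes. Connexin genes without a named probe set were not analysed here. The values were intensities of total RNA from whole mouse skin taken 5 days after birth. The 3 GC13 samples came from transgenic mice that overexpress Hoxc13, a homeodomain protein that drives hair keratin genes, and the 3 FVB samples came from FVB mice, an albino inbred strain. The labels name neither the promoter of the transgene nor its carrier strain, and do not state that each sample was a mouse of its own. The p-values below therefore cover the scatter among these 6 samples, part of which may be technical. No probe set was named for Hoxc13, so the overexpressed gene was not checked here.

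Connexin subunits form a ring in the cell membrane that docks with a ring of the neighbouring cell, and the channel so made lets ions and small metabolites pass from cell to cell. Epidermis and hair follicle express several connexins at once. In skin, Gja1 (Cx43) is the most widespread, Gjb2 (Cx26) and Gjb6 (Cx30) are known from the hair follicle and from dividing or healing epidermis, and Gjb5 (Cx31.1) is known from the differentiating layers. In humans, GJB6 mutations cause hidrotic ectodermal dysplasia, with hair loss and thickened palms. Gja4 (Cx37) and Gja5 (Cx40) belong to the endothelium of arteries, and Gjc1 (Cx45) to vascular smooth muscle and the conduction system of the heart. Gjb1 (Cx32) is a connexin of liver and Schwann cells, Gja3 (Cx46) of the lens, Gjd2 (Cx36) of neurons and Gja10 (Cx57) of retinal horizontal cells.

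Some facts of the 6 arrays bear on every value below. Intensities summed to between 1626361 and 1736141 per array, and the number of arrays limited the precision. Loss of the 5' ends of messenger RNA raises the ratio of the 3' to the 5' Gapdh control. That ratio stood at 2.22, 9.58 and 2.19 for GC13 replicates 1, 2 and 3, and between 0.894 and 0.958 for the FVB arrays. The same ratio for beta-actin was 1.26, 3.80 and 1.43 for GC13 replicates 1, 2 and 3, and between 1.16 and 1.36 for FVB. It thus set apart mainly GC13 replicate 2. By the Gapdh ratio, RNA quality and line cannot be told apart. Eif2s3y, a gene of the Y chromosome, stood at 3.25, 143 and 4.60 on the same GC13 arrays and between 69.4 and 98.9 on the FVB arrays, so GC13 replicates 1 and 3 differed from the other 4 arrays in it. Markers of skin were present: Krt10, of differentiating epidermis, averaged 2169 ± 168 in GC13 and 2090 ± 120 in FVB (SD, n = 3 each), and Krt25, of the inner root sheath, 2276 ± 334 in GC13 and 2297 ± 121 in FVB. The probe sets of the basal keratins Krt5 and Krt14 were dim on all arrays, at 14.2 or less, while Trp63, also of basal keratinocytes, averaged 423 ± 55.2 in GC13 and 437 ± 18.8 in FVB. In whole skin, fewer cells of a type and less RNA per cell cannot be told apart.

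The comparison of GC13 with FVB asks whether connexin transcripts differ in skin with added Hoxc13. With all 6 arrays weighted equally, no tested connexin probe set passed the threshold, and some 95% intervals were wide, that of Gjb6 94391_at running from -2.08 to 0.19 on the log2 scale. With arrays weighted by how well they follow the fit, 3 of the 8 passed, where 41.3% of all probe sets tested did. Intensities were put on the log2(intensity + 2) scale, centred on each array's median and tested with limma. A filter dropped the dimmest 25% by mean over the 6 arrays, which kept 8 of the 14 connexin probe sets, of 6 genes, among 9317 in all. Of these 8, 0 passed an adjusted p of 0.05 and 0 had an unadjusted p under 0.05, where 44 of all 9317 probe sets (0.472%) passed the first and 15.5% the second. Of the 44, 8 were higher and 36 lower in GC13, against 2 and 26 without centring. The connexin changes lay on both sides of 0, with 4 probe sets above and 4 below, and their median log2 fold change was -0.05, against 0.08 over all probe sets tested. The lowest limma adjusted p of a connexin was 0.368, that of Gja3, a dim probe set just inside the filter.

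**Figure D1:**
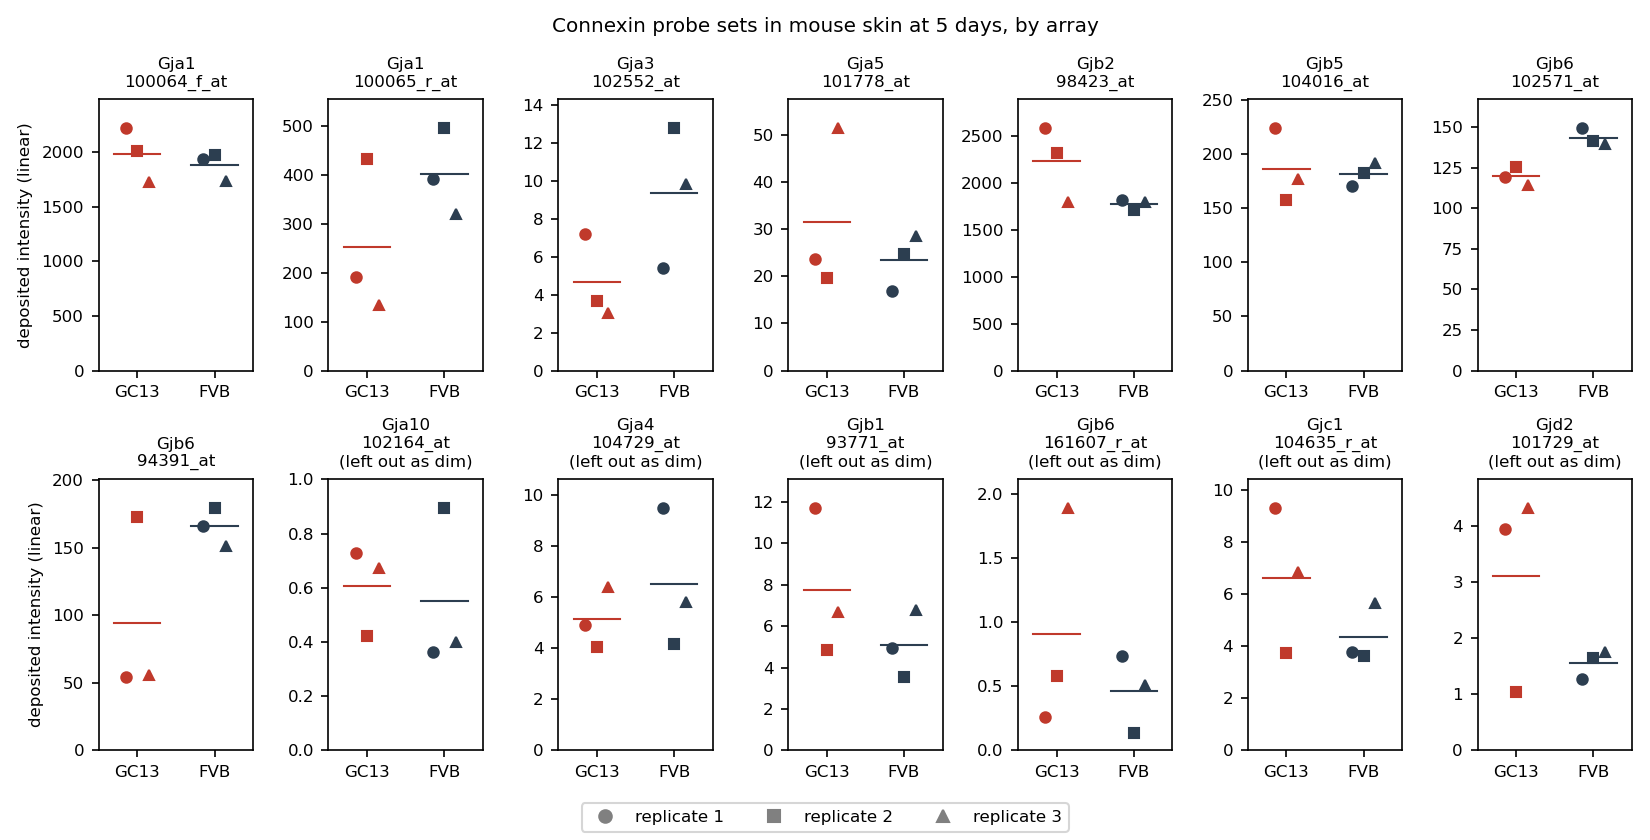
Deposited intensity (linear scale, from 0) of the 14 connexin probe sets on each array, GC13 left and FVB right, with the replicate as marker shape and the group mean as a line. In the panels of Gja1 100065_r_at and Gjb6 94391_at, GC13 replicates 1 and 3 lie below all FVB arrays while GC13 replicate 2 lies among them.

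Stretches before the start of 3 connexin genes are shown because the line overexpresses a homeodomain factor and these genes carry the readings described next. They are the 250 bases before the RefSeq start in build GRCm38.p6, at chr10:56377050-56377299 on the plus strand for Gja1, chr14:57104703-57104952 on the minus strand for Gjb2 and chr14:57133612-57133861 on the minus strand for Gjb6. Capitals mark TAAT, the core of many homeodomain binding sites, and TTTAT, a core used by Hox proteins of the posterior groups, each on either strand.
Gja1: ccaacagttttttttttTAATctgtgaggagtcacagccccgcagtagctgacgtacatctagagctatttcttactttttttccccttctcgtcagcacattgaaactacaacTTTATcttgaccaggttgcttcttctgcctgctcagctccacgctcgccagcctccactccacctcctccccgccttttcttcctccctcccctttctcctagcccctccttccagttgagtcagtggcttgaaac
Gjb2: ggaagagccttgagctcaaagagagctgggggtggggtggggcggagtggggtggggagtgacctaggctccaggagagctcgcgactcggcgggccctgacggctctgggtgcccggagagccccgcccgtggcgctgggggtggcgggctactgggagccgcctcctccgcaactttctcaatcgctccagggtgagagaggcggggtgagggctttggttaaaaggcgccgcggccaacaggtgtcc
Gjb6: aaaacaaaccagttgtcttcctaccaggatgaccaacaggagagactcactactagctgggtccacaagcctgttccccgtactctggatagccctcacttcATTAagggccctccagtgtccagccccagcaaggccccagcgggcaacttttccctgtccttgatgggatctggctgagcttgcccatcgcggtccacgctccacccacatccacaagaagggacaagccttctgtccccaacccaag
Gja1 held 1 match to each motif, with no overlap between them, Gjb6 held 1 match to TAAT on its reverse strand, and Gjb2 held 0 of either. Among 32851 such windows of the RefSeq table, 54.9% held TAAT and 37.3% held TTTAT, so a match is common and does not show a binding site. Beyond these letters nothing about binding was measured.

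Gja1, the most widespread connexin of skin, was read by a pair of probe sets drawn from the same sequence record, and they gave different pictures. Probe set 100064_f_at had intensities of 2219, 2011 and 1724 in GC13, against 1939, 1975 and 1731 in FVB. The groups overlapped, and its log2 fold change was 0.14 (SE 0.23, limma adjusted p = 0.796), with a 95% interval from -0.38 to 0.67. Probe set 100065_r_at had 192, 432 and 135 in GC13, against 393, 496 and 320 in FVB. GC13 replicates 1 and 3 lay below every FVB array, and GC13 replicate 2 lay among the FVB arrays. Its log2 fold change was -0.75 (SE 0.48, limma adjusted p = 0.494). GC13 replicates 1 and 3 averaged 40.6% of the FVB mean at this probe set, while replicate 2 stood at 107%. Left at 5 arrays, without GC13 replicate 2, the log2 fold change of 100065_r_at was -1.31 (SE 0.27, limma adjusted p = 0.0295) and that of 100064_f_at was 0.03 (SE 0.19, limma adjusted p = 0.918).

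The suffix of a probe set tells how it was designed: f marks probes shared within a sequence family, and r marks a set for which some design rules were dropped. The array-wise difference between the Gja1 probe sets, first minus second on the centred log2 scale, was 3.52, 2.21 and 3.66 in GC13, against 2.30, 1.99 and 2.43 in FVB. The means were 3.13 ± 0.80 in GC13 and 2.24 ± 0.23 in FVB (SD, n = 3 each), and an exact two-sided permutation test gave p = 0.3, where 0.1 is the smallest that 3 against 3 arrays allow. Which of them follows the Gja1 transcript was not tested.

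Gjb2, a connexin of follicle and activated epidermis, had intensities of 2589, 2318 and 1803 in GC13, against 1816, 1716 and 1804 in FVB. GC13 replicates 1 and 2 lay above all FVB arrays, and GC13 replicate 3 lay between FVB values. The mean was 2237 ± 399 in GC13 and 1779 ± 54.6 in FVB (SD, n = 3 each), and the log2 fold change was 0.39 (SE 0.25, limma adjusted p = 0.487). Its 95% interval ran from -0.18 to 0.95. The spread within GC13 was far wider than within FVB, at 17.9% against 3.07% of the mean.

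Gjb6 lies next to Gjb2 on chromosome 14, with no protein-coding gene of the RefSeq table between them, and its 3 probe sets came from different sequence records. Probe set 102571_at was at 119, 125 and 114 in GC13, against 149, 142 and 139 in FVB. All GC13 intensities lay below all FVB intensities, which made it the 1 connexin among the 8 tested whose groups did not overlap, where 22.9% of all tested probe sets did not. After centring its groups overlapped, as did those of all 8 tested connexin probe sets, where 24.5% of all tested probe sets had groups without overlap. The log2 fold change was -0.18 (SE 0.21, limma adjusted p = 0.715). Probe set 94391_at was at 54.1, 173 and 55.5 in GC13, against 166, 180 and 152 in FVB. GC13 replicates 1 and 3 stood at 33.0% of the FVB mean and replicate 2 at 104%, so the groups overlapped through that 1 array. With all 6 arrays the log2 fold change was -0.95 (SE 0.49, limma adjusted p = 0.4). Without GC13 replicate 2 it was -1.58 (SE 0.15, limma adjusted p = 0.00557). The third probe set, 161607_r_at, was left out as dim, with 0.262, 0.582 and 1.89 in GC13, against 0.736, 0.138 and 0.510 in FVB.

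The Gjb6 probe sets thus differed in how far GC13 replicates 1 and 3 lay below FVB. The difference of 102571_at minus 94391_at on the centred log2 scale was 1.11, -0.46 and 1.02 in GC13, against -0.15, -0.34 and -0.12 in FVB. The exact two-sided permutation test gave p = 0.4, with means of 0.56 ± 0.88 in GC13 and -0.20 ± 0.12 in FVB (SD, n = 3 each).

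**Figure D2:**
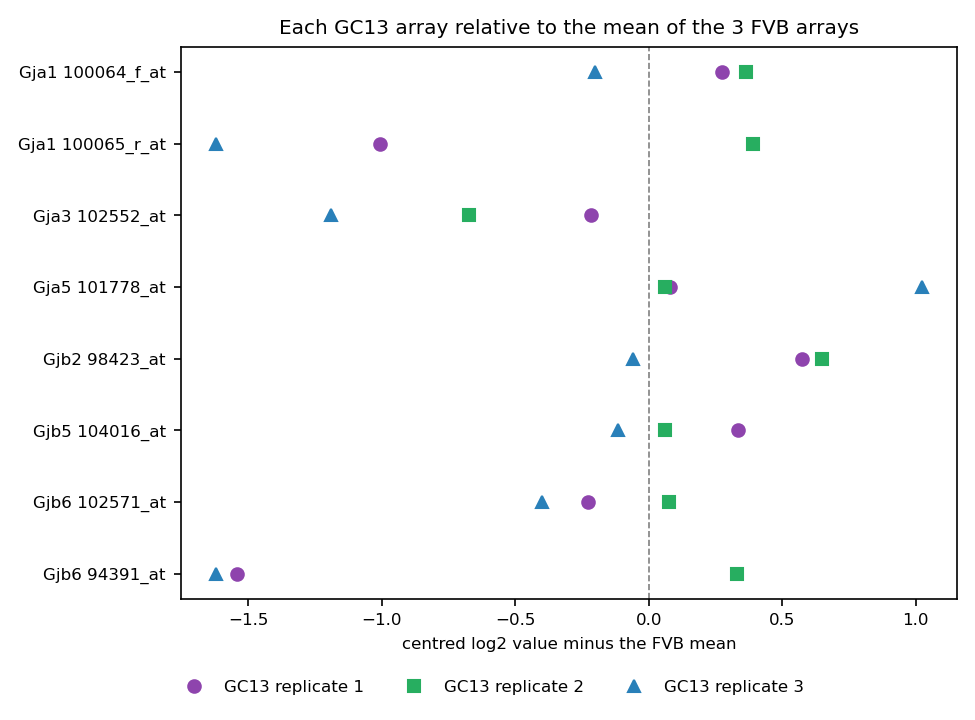
Centred log2 value of each GC13 array minus the mean of the 3 FVB arrays (x axis, log2 units) for the 8 tested connexin probe sets, with 1 marker per GC13 array and a dashed line at 0. For Gja1 100065_r_at and Gjb6 94391_at, GC13 replicates 1 and 3 lie at -1.01, -1.62, -1.54 and -1.62, while GC13 replicate 2 lies at 0.39 and 0.33.

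The calls that came without GC13 replicate 2 have to be read against the whole array. In that fit 2 of the 8 connexin probe sets passed, both lower in GC13, where 14.8% of all 9317 probe sets passed in either direction and 8.80% passed as lower. GC13 replicate 2 is the array with the Gapdh ratio of 9.58 and the Eif2s3y intensity of 143, and on these 2 probe sets its levels were those of FVB. Without replicate 2, the GC13 arrays left had Eif2s3y at 3.25 and 4.60, against 69.4 to 98.9 on the FVB arrays. In that fit line and sex cannot be told apart, for these or any other calls made without that array. The GC13 arrays left also had Gapdh ratios of 2.22 and 2.19, against 0.894 to 0.958 on the FVB arrays. By that ratio line and RNA quality cannot be told apart in that fit either. Their beta-actin ratios were 1.26 and 1.43, against 1.16 to 1.36 on the FVB arrays. The part of RNA quality in the level of GC13 replicate 2 on these probe sets was not tested. With arrays weighted by how well they follow the fit, the GC13 weights were 4.11, 0.107 and 0.329 for replicates 1, 2 and 3, so replicate 1 set most of the GC13 value. In that fit 3 of the 8 passed where 41.3% of all probe sets did: Gjb6 94391_at and Gja1 100065_r_at as lower, and Gjb2 as higher, with 0.52 on the log2 scale (SE 0.13, limma adjusted p = 0.0158).

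**Figure D3:**
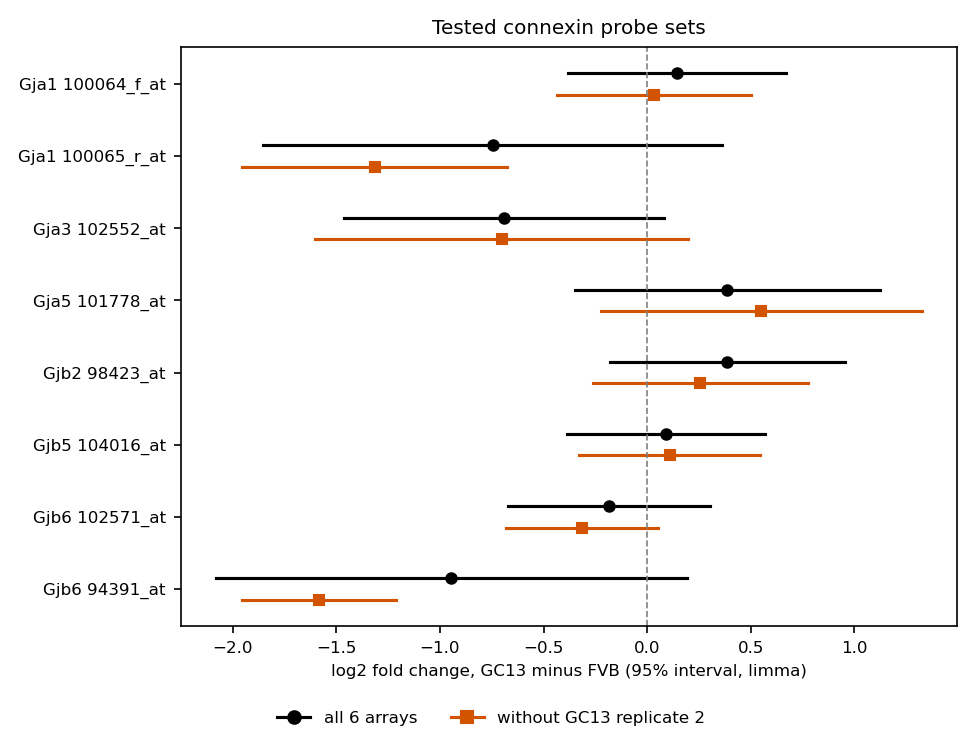
Log2 fold change of GC13 minus FVB for the 8 tested connexin probe sets with 95% intervals from limma, for all 6 arrays (black circles) and without GC13 replicate 2 (orange squares), with a dashed line at 0. With 6 arrays every interval crosses 0, and without GC13 replicate 2 those of Gja1 100065_r_at and Gjb6 94391_at lie below it.

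Gjb5, a connexin of differentiating epidermis and, in mice, of the placenta, differed least of the tested genes with a single probe set. It had 224, 157 and 177 in GC13, against 170, 183 and 192 in FVB, so GC13 replicate 1 lay above all FVB arrays, GC13 replicate 2 below them and GC13 replicate 3 between them. Its log2 fold change was 0.09 (SE 0.21, limma adjusted p = 0.858), with a 95% interval from -0.38 to 0.57. Of 9 tested markers of suprabasal keratinocytes 6 lay above 0 and 3 below, and 1 passed, Krt77, at 418 ± 39.9 in GC13 and 1093 ± 51.5 in FVB. The log2 fold change was 1.05 for Flg and 1.11 for Krt1, and limma called neither. Without GC13 replicate 2, where 14.8% of all probe sets passed, Krt1, Flg and Lor passed as higher and Krt77 as lower. The median of the 9 was then 0.05, against 0.32 with 6 arrays.

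Among the connexins of blood vessels, Gja5 of arterial endothelium had 23.8, 19.6 and 51.5 in GC13, against 17.0, 24.8 and 28.6 in FVB. GC13 replicate 3 lay above all other arrays, and GC13 replicates 1 and 2 lay within the FVB range. Its log2 fold change was 0.39 (SE 0.32, limma adjusted p = 0.599). Gja4, its partner in arteries, was left out as dim, at 4.91, 4.06 and 6.41 in GC13, against 9.49, 4.17 and 5.82 in FVB. Gjc1 of vascular smooth muscle was also left out, at 9.32, 3.73 and 6.84 in GC13, against 3.80, 3.62 and 5.65 in FVB. Both ranges overlapped between the lines. Markers of the endothelium were summed over 10 genes to between 1038 and 1288 in GC13 and to between 677 and 803 in FVB. The largest gaps in intensity were those of Eng and Cdh5. Eng averaged 412 ± 189 in GC13 and 199 ± 11.3 in FVB, and Cdh5 316 ± 85.6 in GC13 and 211 ± 41.9 in FVB (SD, n = 3 each). Of those 10 genes 9 lay above 0 and 0 passed, with a median log2 fold change of 0.43. Markers of smooth muscle and pericytes split evenly, with 4 above 0 and 4 below and 0 passed. Without GC13 replicate 2, where 562 of all 9317 probe sets passed as higher, 1 marker of each list did so, Eng of the endothelium and Des of smooth muscle. Whether the vessel content of the samples bears on Gja5 was not tested.

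Connexins known mainly from other organs were dim. Gja3, the lens connexin, stood just inside the filter on dim probe sets and Gjb1 just outside it, with centred log2 means of -2.13 and -2.18 against the limit of -2.15. Gja3 had 7.19, 3.69 and 3.06 in GC13, against 5.40, 12.8 and 9.86 in FVB. GC13 replicates 2 and 3 lay below the FVB arrays and GC13 replicate 1 lay between them, and the log2 fold change was -0.69 (SE 0.33, limma adjusted p = 0.368). Gjb1, which in skin could come from Schwann cells of the nerves, had 11.7, 4.83 and 6.68 in GC13, against 4.96, 3.53 and 6.78 in FVB. Of 6 tested Schwann cell markers 4 lay above 0 and 0 passed. Gjd2 had 3.94, 1.05 and 4.33 in GC13, against 1.28, 1.65 and 1.76 in FVB, and GC13 replicate 2 was the lowest of the 6 arrays. Gja10 stayed under 1 on all arrays, at 0.423 to 0.729 in GC13, against 0.362 to 0.895 in FVB. At such intensities the signal over background is unknown.

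The members varied more between GC13 arrays than between FVB arrays. On the centred log2 scale, the SD was larger in GC13 for 8 of the 8 tested connexin probe sets, as it was for 84.8% of all probe sets tested. Neighbouring genes lay on both sides of 0: on chromosome 14, where Gja3, Gjb2 and Gjb6 lie in a row, Gja3 had -0.69, Gjb2 0.39 and the tested Gjb6 probe sets -0.18 and -0.95, none past the threshold (limma).

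Proteins that bind or modify connexins were set beside them. Of 23 genes in this list 17 were tested, and 0 passed, with 9 above 0, 8 below and a median log2 fold change of 0.08, against 0.08 over all probe sets. Without GC13 replicate 2 the median was -0.18, against 0.02 over all probe sets, and 2 of the 17 passed where 14.8% of all probe sets did: Nedd4 as higher, at 0.73 (limma adjusted p = 0.0457), and Tsg101, a sorting protein of endosomes, as lower, at -1.53 (limma adjusted p = 0.0114). Tsg101 was dim, at 2.230, 14.64 and 3.619 in GC13, against 10.96, 15.10 and 10.02 in FVB. Its GC13 replicate 2 lay among the FVB arrays, and its signal over background is unknown. With all 6 arrays the log2 fold change of Tsg101 was -0.84 (limma adjusted p = 0.489). With 6 arrays, unadjusted p-values under 0.05 occurred for 2 of the 17, where 15.5% of all probe sets had one. Nedd4, a ubiquitin ligase that acts on Cx43, had 920, 652 and 746 in GC13, against 500, 517 and 459 in FVB. All GC13 arrays lay above all FVB arrays, where 22.9% of all tested probe sets had groups without overlap in either direction. The log2 fold change of Nedd4 was 0.71 (limma adjusted p = 0.182). Ctnnd1, a catenin gene, stood at 0.52 (limma adjusted p = 0.299), and Cav1, the caveolin gene, 0.39 (limma adjusted p = 0.412). Tjp1, whose product ZO-1 binds the tail of Cx43, averaged 433 ± 72.3 in GC13 and 367 ± 15.6 in FVB (SD, n = 3 each) and did not pass (limma adjusted p = 0.594). The pannexins, channel proteins of similar shape, had no named probe set and were not analysed here.

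Tight junctions are the sealing system of the same cell borders. Of 28 genes 11 were tested and 0 passed, with 3 above 0, 8 below and a median log2 fold change of -0.51, against 0.08 over all probe sets. That median was -0.33, -0.62 and -0.16 without GC13 replicates 1, 2 and 3. It was -0.24, -0.40 and -0.63 without FVB replicates 1, 2 and 3. With 6 arrays, 4 of the 11 had an unadjusted limma p under 0.05, where 15.5% of all probe sets had one. The 15 genes with a probe set summed to between 1322 and 1362 in GC13 and to between 2023 and 2062 in FVB, without overlap. Cldn4, a claudin gene, gave most of that difference, with 230, 141 and 429 in GC13, against 800, 774 and 870 in FVB. Its groups did not overlap, as was so for 22.9% of all tested probe sets in either direction. Its log2 fold change of -1.68 missed the threshold (limma adjusted p = 0.0798). Cldn3 had 42.4, 41.0 and 46.0 in GC13, against 104, 96.8 and 89.8 in FVB, also without overlap, and its log2 fold change was -1.06 (limma adjusted p = 0.0764). Cldn5, a claudin of endothelium, averaged 82.1 ± 19.4 in GC13 and 134 ± 6.47 in FVB (limma adjusted p = 0.212). Without GC13 replicate 2, 3 of the 11 passed, all as lower, Cldn3 at -1.12, Cldn4 at -1.39 and Cldn1 at -1.03. In that fit 14.8% of all probe sets passed in either direction and 8.80% as lower. Cldn1 shared the pattern of Gjb6 94391_at, with 119, 268 and 102 in GC13, against 227, 265 and 184 in FVB, where GC13 replicate 2 lay above every FVB array. The pattern was not limited to junction genes. S100a8, a marker of stress-induced keratinocytes, had 46.1, 146 and 51.1 in GC13, against 162, 139 and 155 in FVB.

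**Figure D4:**
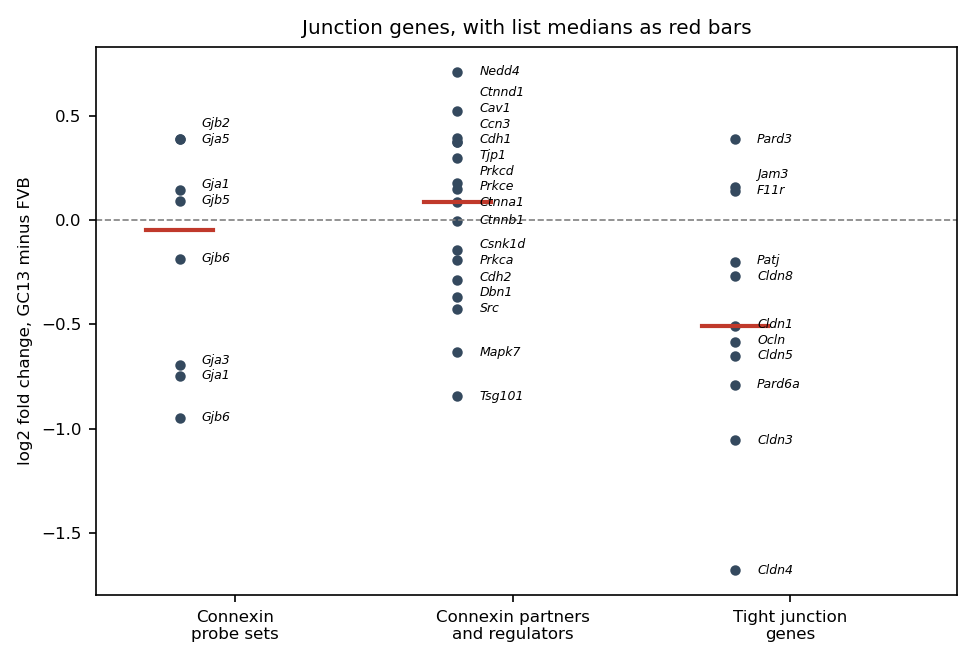
Log2 fold change of GC13 minus FVB from limma with 6 arrays (y axis) for the 8 connexin probe sets, 17 connexin partners and regulators and 11 tight junction genes, 1 point each with its gene symbol beside it, and list medians as red bars. The medians are -0.05, 0.08 and -0.51, and Cldn4 and Cldn3 lie lowest, at -1.68 and -1.06.

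Markers of the cells that carry these connexins, and of other cells of skin, were compared in the same fit. Basal keratinocyte markers lay above 0 in 6 of 6 tested genes with a median of 0.30, and stress-induced keratinocyte markers in 7 of 10 with a median of 0.26, where Sprr2b, of a family with near-identical members, passed as higher. Inner root sheath markers lay below 0 in 6 of 8 with a median of -0.58, where Krt72 passed as lower, and hair matrix and cortex markers in 10 of 13 with a median of -0.44 and 0 past the threshold. Hair matrix and cortex markers summed to between 15185 and 17302 in GC13 and to between 18825 and 19834 in FVB, while inner root sheath sums overlapped, at 8342 to 10066 in GC13 and 9515 to 10039 in FVB. Fibroblast markers lay above 0 in 7 of 7 with a median of 0.54, and melanocyte markers below 0 in 6 of 6 with a median of -0.57, both with 0 past the threshold. Skeletal muscle, adipocyte and leukocyte markers had medians of 0.42, 0.31 and -0.12, with 0 past the threshold in each. Without GC13 replicate 2, 14.8% of all probe sets passed in either direction and 8.80% passed as lower. In that fit 5 hair matrix and cortex markers passed as lower, with a median of -0.64, as did 2 melanocyte and 2 leukocyte markers and 1 of the inner root sheath. Of all 9317 probe sets 562 passed as higher there, among them 4 skeletal muscle, 3 fibroblast and 1 basal keratinocyte marker. Stress-induced keratinocyte markers had 2 higher and 1 lower. The medians were then 0.54 for basal keratinocyte, 0.50 for stress-induced keratinocyte, 0.02 for adipocyte and -0.46 for leukocyte markers. The part of these cells in the connexin values was not tested.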

How the data were processed

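Whole skin of 3 GC13 and 3 FVB samples was measured on 1 array each. The deposited values were linear intensities above 0 for 12488 probe sets. Their software and background correction are not stated in the labels. The values show that every array was scaled to a trimmed mean near 100.1. The 66 control probe sets were used only for 3' over 5' ratios. Gene names came from the platform annotation, updated by Entrez identifier through RefSeq (GRCm38.p6). Of 12422 probe sets 10833 had 1 gene, 396 several and 1193 none, and 10817 were found in RefSeq. A list gene stood by its brightest probe set. Connexins were kept per probe set. The comparison of the lines used limma 3.58.1 (R 4.3.3) with two-sided p-values, adjusted by Benjamini-Hochberg over all 9317 tested probe sets. A fold change on the log2(intensity + 2) scale understates that of dim probe sets. All connexins were named. Of other lists, up to 4 members with the smallest p, any called member and the marker genes used to check the tissue were named. Krt10, Krt25, Krt5, Krt14, Trp63, Tjp1, Cldn1, Tsg101, S100a8, Lor, Eng, Cdh5, Des and Eif2s3y were picked with their values in view. The members and lists were chosen with earlier results of these data known. Exact permutation tests used scipy 1.17.1. The fit was tested on simulated arrays. Alternatives were other pseudocounts, filters, scalings and variance models, array weights, a replicate block and each array left out.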

Additional observations from a re-analysis of the deposited data

How the results depend on the processing

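With 3 arrays a group, precision was limited by the number of arrays. Over the alternatives, the count of called connexin probe sets was 0 except for 3 with array weights and 2 without GC13 replicate 2, and it ran from 0 to 2 over the fits that left out 1 array. The count over all probe sets, 44 with 6 arrays, was 119 with a pseudocount of 32, 23 with the lowest 50% left out, 28 without centring, 3851 with array weights and 78 with the replicate block. Leaving out 1 array gave between 0 and 1382, with 1382 without GC13 replicate 2, 9 without GC13 replicate 1, 11 without GC13 replicate 3 and 0 without any 1 of the FVB arrays, where limma gave 768, 802 and 946 an unadjusted p under 0.05 without FVB replicates 1, 2 and 3. The cause was not tested. The array weights put GC13 replicate 2 at 0.107, the lowest of the 6. These weights come from the same deviations and test no cause. Of 134 single connexin values under an alternative, 128 kept their direction and their side of the threshold, 5 kept their direction and passed, and 1 turned. Other filters, variance models and the replicate block leave the fold change itself as it was, so under them only the p-value could move. Gjb5, at 0.09 with 6 equally weighted arrays, ran from -0.027, without GC13 replicate 1, to 0.20, without GC13 replicate 3, when 1 array was left out, and was 0.31 with array weights. The median of connexin partners and regulators, 0.08, turned to -0.18 without GC13 replicate 2 and to -0.05 with quantile normalization. Gja3 and Gja5 had no value with the lowest 50% left out. The fold change of the dim Gja3 depended on the pseudocount, at -0.80 with 1, -0.69 with 2, -0.39 with 8 and -0.13 with 32. Whether equal replicate numbers pair the samples cannot be settled with 3 arrays a group. The deviations from the group means correlated at -0.07, 0.18 and 0.36 for numbers 1, 2 and 3, the last being the highest of all combinations. GC13 replicates 1 and 2 correlated best with FVB arrays of another number. With the replicate block, 0 connexin probe sets passed.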
